A study of Mus musculus with 154 samples.

Results

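Liver transcripts of 10 acute-phase proteins were followed across the mice of 24 strains. The genes were the serum amyloid A genes Saa1, Saa2, Saa3 and Saa4, the orosomucoid genes Orm1 and Orm2, Hp (haptoglobin), Lcn2 (lipocalin 2), Crp (C-reactive protein) and Apcs (serum amyloid P component). They were listed by name as acute-phase proteins known in the mouse, at a time when earlier results of these data were known, and were found in the count table by the Ensembl identifier that the GENCODE annotation pairs with each symbol. All 10 were among the 13289 genes of the table. Of these, 9 had at least 15 counts in every mouse, and Saa3, the least abundant, had 15 or more in 151 mice and 11 in the lowest.

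The acute-phase response is the change in plasma proteins made by the liver after infection, injury or another inflammatory stimulus. Macrophages release interleukin 6, interleukin 1 and tumor necrosis factor, and hepatocytes answer through the transcription factors STAT3, C/EBP beta and NF-kappaB. Saa1 and Saa2 encode the inducible apolipoproteins that join high density lipoprotein during inflammation. Saa3 encodes a form that is also made outside the liver, and Saa4 encodes the constitutive form. Orm1 and Orm2 encode alpha-1-acid glycoproteins, which bind drugs and dampen inflammation. Haptoglobin captures free hemoglobin, and lipocalin 2 binds the siderophores by which bacteria take up iron. Crp and Apcs encode pentraxins, which recognize damaged cells and microbes. Apcs is the pentraxin that responds most in the mouse, whereas Crp, a major reactant in humans, responds little in the mouse.

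Most of the genes lie in clusters of related copies. In mm10 coordinates, the serum amyloid A genes were neighbors on chromosome 7, with Saa3 (ENSMUSG00000040026) at chr7:46711998-46715700, Saa4 (ENSMUSG00000040017) at chr7:46727998-46732603, Saa1 (ENSMUSG00000074115) at chr7:46740497-46742980 and Saa2 (ENSMUSG00000057465) at chr7:46751790-46754313. Saa2 was annotated on the plus strand and the other 3 on the minus strand. Orm1 (ENSMUSG00000039196) at chr4:63344560-63348163 and Orm2 (ENSMUSG00000061540) at chr4:63362449-63365878 shared the plus strand of chromosome 4. The pentraxin genes were neighbors on chromosome 1, Crp (ENSMUSG00000037942) at chr1:172698055-172833031 on the plus strand and Apcs (ENSMUSG00000026542) at chr1:172893961-172895041 on the minus strand. Lcn2 (ENSMUSG00000026822) was at chr2:32384633-32388252 and Hp (ENSMUSG00000031722) at chr8:109575128-109579172, both on the minus strand. All of them were annotated as protein-coding.

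The start regions of Saa1 and Saa2 are shown because these copies were high in many of the same mice. Each is the 250 bases before the gene's start, 5′ to 3′ on the gene's own strand, from RefSeq on GRCm38.p6, at chr7:46742981-46743230 on the minus strand for Saa1 and chr7:46751583-46751832 on the plus strand for Saa2. Capitals mark the bases at which one differs from the other.
Saa1: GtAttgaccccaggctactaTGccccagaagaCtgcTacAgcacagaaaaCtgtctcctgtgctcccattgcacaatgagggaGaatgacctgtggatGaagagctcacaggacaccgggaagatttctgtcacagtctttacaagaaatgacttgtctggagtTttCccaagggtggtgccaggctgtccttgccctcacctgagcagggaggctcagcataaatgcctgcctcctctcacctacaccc
Saa2: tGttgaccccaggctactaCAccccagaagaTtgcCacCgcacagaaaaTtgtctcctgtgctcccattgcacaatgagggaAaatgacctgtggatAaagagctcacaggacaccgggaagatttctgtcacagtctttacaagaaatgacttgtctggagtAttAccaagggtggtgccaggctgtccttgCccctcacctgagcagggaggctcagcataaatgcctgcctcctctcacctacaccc
The starts lay 8853 bases apart and faced away from each other, and 238 of 251 aligned columns (94.8%) were identical. Both carried the C/EBP motif TTGCNNAA as TTGCACAA, at 182 to 175 bases before the start in Saa1 and 1 base farther from it in Saa2.

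Orm2, Lcn2 and Apcs are shown as 3 further members that were high in some of the same mice. Their regions were chr4:63362199-63362448 on the plus strand, chr2:32387740-32387989 on the minus strand and chr1:172895055-172895304 on the minus strand of the same build. Capitals mark motif matches, C/EBP in Orm2 and Lcn2, the TATA box TATAAA in Orm2, and the STAT3 motif TTCNNNGAA in Apcs.
Orm2: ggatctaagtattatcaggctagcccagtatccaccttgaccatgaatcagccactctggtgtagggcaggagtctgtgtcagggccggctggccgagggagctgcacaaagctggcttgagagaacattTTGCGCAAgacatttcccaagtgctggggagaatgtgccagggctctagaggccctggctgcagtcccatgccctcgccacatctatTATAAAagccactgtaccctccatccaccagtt
Lcn2: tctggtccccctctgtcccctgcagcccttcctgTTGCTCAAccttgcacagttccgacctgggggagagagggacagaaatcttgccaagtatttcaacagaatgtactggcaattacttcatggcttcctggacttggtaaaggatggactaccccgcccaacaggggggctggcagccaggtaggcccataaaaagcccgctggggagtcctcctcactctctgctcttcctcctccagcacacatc
Apcs: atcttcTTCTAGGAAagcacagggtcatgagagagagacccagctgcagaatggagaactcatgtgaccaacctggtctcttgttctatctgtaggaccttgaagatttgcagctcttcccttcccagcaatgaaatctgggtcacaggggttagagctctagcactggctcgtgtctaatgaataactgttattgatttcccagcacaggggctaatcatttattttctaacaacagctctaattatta
RefSeq start regions were at hand for 8 of the 10 genes. On either strand, the C/EBP motif was present in 6 of these 8 (Saa1, Saa2, Saa3, Saa4, Orm2 and Lcn2) against 9.56% of 32851 start regions of the same length. The STAT3 motif was present in 1 (7.02% of all), the TATA box in 2, Orm2 and Crp (12.4% of all), and the NF-kappaB motif in none (4.65% of all). The glucocorticoid receptor motif (0.387% of all) and the HNF1 motif (0.0609% of all) were in none of the 8. A match is a description of the letters and not a site, and the matches of TTGCNNAA and TATAAA do not overlap.

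RNA was taken from liver tissue (the caudate lobe) of 5-week-old male mice that had been fasted overnight and anesthetized with isoflurane. The controls were 20 C57BL/6J (B6) mice. In chromosome substitution strains (CSS), one B6 chromosome is replaced by that of strain A/J, and here each mouse carried a substitution in the heterozygous state, either 1 (8 single CSS strains, 63 mice, 7 or 8 each) or 2 on different chromosomes (15 double CSS strains, 71 mice, 3 to 6 each). In the single strains B6.A3, B6.A6, B6.A14 or B6.A17 was the dam and B6 the sire, as in (B6.A3 x B6)F1, or B6 was the dam and B6.A4, B6.A5, B6.A8 or B6.A10 the sire, as in (B6 x B6.A4)F1. Each double strain crossed a dam of the former CSS group with a sire of the latter. Names are written dam first, whereas the labels write the sire first. A whole chromosome is substituted, so that an effect may come from any A/J gene on it. The labels' mouse numbers (such as E748) are used for single mice. Total counts per mouse ranged from 4638701 to 30465477 (median 16116424). All 8 hepatocyte markers were detected, with summed levels of 103651 to 161535 CPM (counts scaled to a common library size) in B6. In mouse E733, labeled (B6.A14 x B6.A4)F1 replicate 3, the 4 Y-linked genes of the table summed to 2.94 CPM against 227.5 to 432 CPM in the other mice, so that the calls in that strain, and its medians where they end the order of the strains, are also given without it.

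Values are CPM on library sizes scaled by TMM. They are not per length and are compared between mice, not between genes. In the 20 B6 mice, Saa1 ranged from 14.02 to 997 CPM with a median of 38.9, and Saa2 from 4.61 to 396 (median 12.4). Lcn2 ranged from 3.76 to 187.6 CPM (median 8.96). In each of these genes most B6 mice were low and a few were far higher. For Saa1 the highest were E752 (replicate 16) at 997, E422 (replicate 7) at 478 and E691 (replicate 14) at 248, and the next was E776 at 98.9. For Lcn2 the same mice led in another order, E422 at 187.6, E752 at 170.5 and E691 at 82.2, followed by E373 at 47.2 and E419 at 28.5. Orm2 was 59.2 CPM in E422 and at most 14.6 in the other B6 mice (lowest 4.404, median 6.44). The remaining genes had narrower ranges in B6. Hp was 1961 to 5217 (median 2666), Orm1 168 to 605 (median 355), and Saa4 51.3 to 253 (median 129.8). Apcs was 42.4 to 148 (median 76.9), Crp 154.4 to 348.9 (median 261), and Saa3 1.38 to 7.38 (median 3.09).

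Mice of the same strain differed far more in some of the genes than in others. The standard deviation of log2 CPM around the strain means was 1.38 for Saa2, 1.35 for Saa1 and 1.12 for Lcn2, at the 99.9th, 99.9th and 99.8th percentile of all 13289 genes. It was 0.70 for Orm2 (98.1st percentile) and 0.62 for Saa3 (96.7th). The median gene was at 0.227. The standard deviation was lower for Apcs at 0.38 (78.3rd percentile), Saa4 at 0.35 (74.8th), Orm1 at 0.30 (66.4th), Hp at 0.27 (61.9th) and Crp at 0.21 (44.2nd). Among genes of like average level only, the percentile was 99.9 for Saa1 and Saa2, 99.8 for Lcn2, 98.9 for Orm2, 97.2 for Saa3, 96.9 for Apcs, 93.3 for Saa4, 81.0 for Orm1, 71.1 for Crp and 70.8 for Hp. The 5 surrogate variables, which capture unlabeled sources of variation in the whole table, accounted for 5.04% of the within-strain variance of Saa1, 5.03% of that of Saa2 and 1.64% of that of Orm2, but for 25.1% of that of Lcn2, against a median of 21.4% over all genes. The share of the total variance that lay between strains was 47.9% for Hp, 37.7% for Apcs, 33.7% for Orm1, 31.1% for Lcn2 and 28.4% for both Saa1 and Saa4, and 25.5% for Crp, 24.97% for Saa2, 23.8% for Orm2 and 19.9% for Saa3, against a median of 25.9% over all genes.

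**Figure D1:**
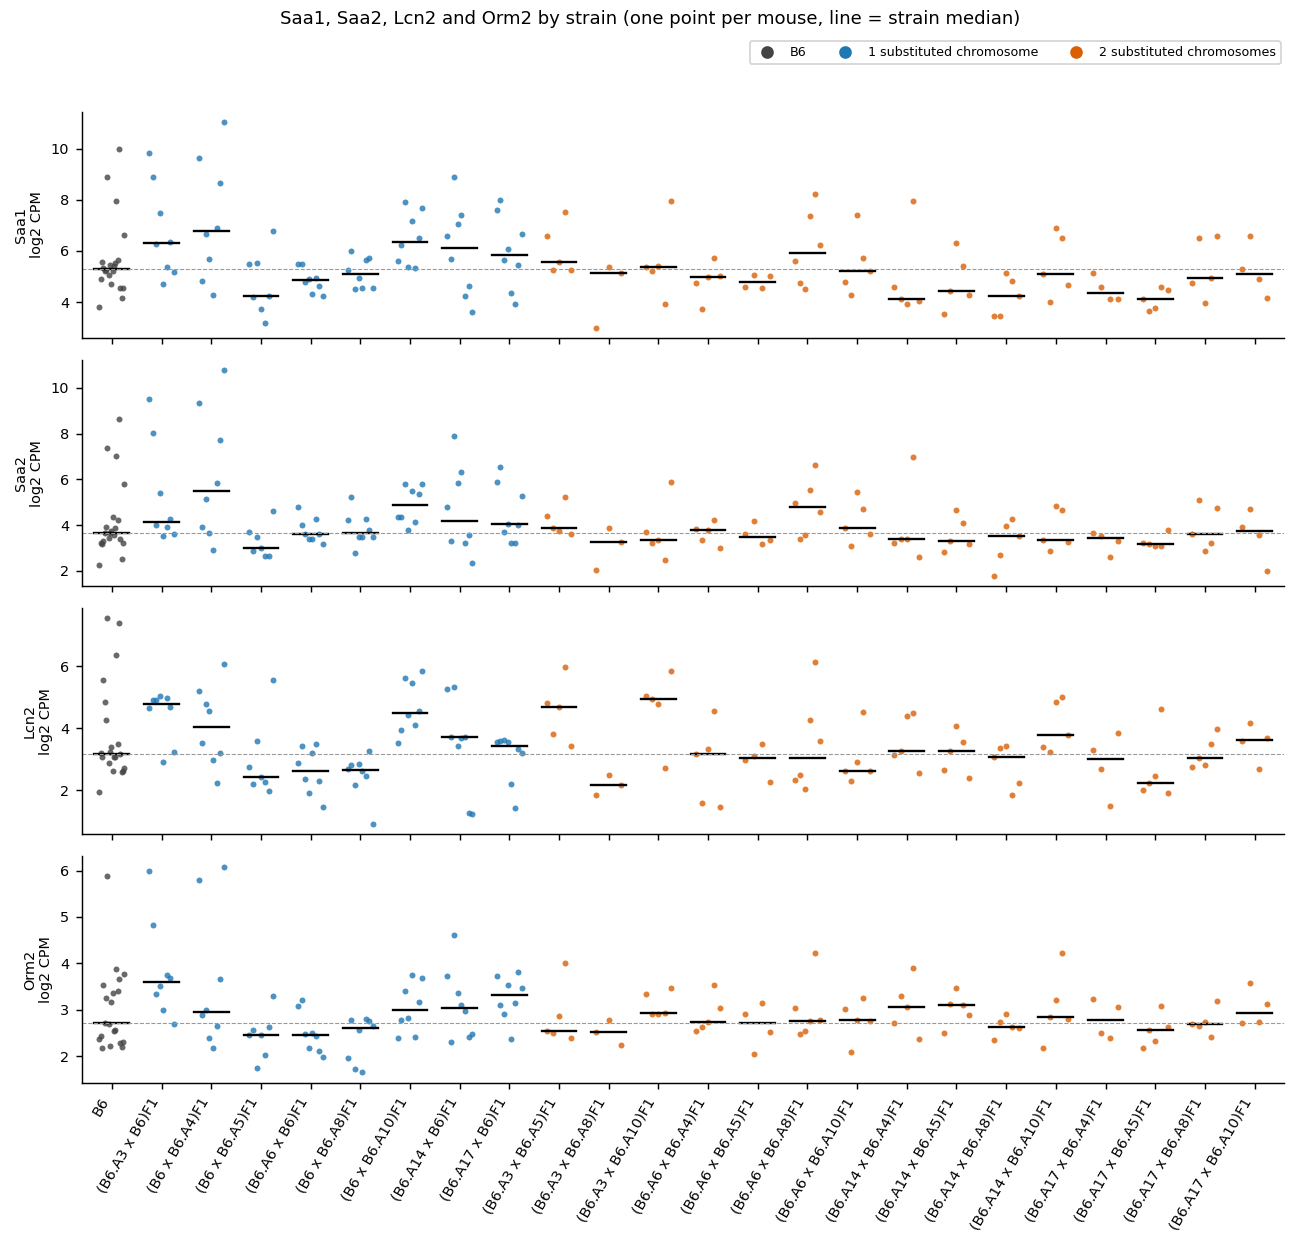
Saa1, Saa2, Lcn2 and Orm2 in every mouse, as log2 CPM, by strain (points are mice, gray for B6, blue for single and orange for double CSS, black bars are strain medians and the dashed line is the B6 median). The spread differs between strains, Saa1 running from 19.1 to 2093 CPM in (B6 x B6.A4)F1 and from 14.02 to 997 CPM in B6, but only from 22.96 to 64.5 CPM in (B6 x B6.A8)F1.

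**Figure D2:**
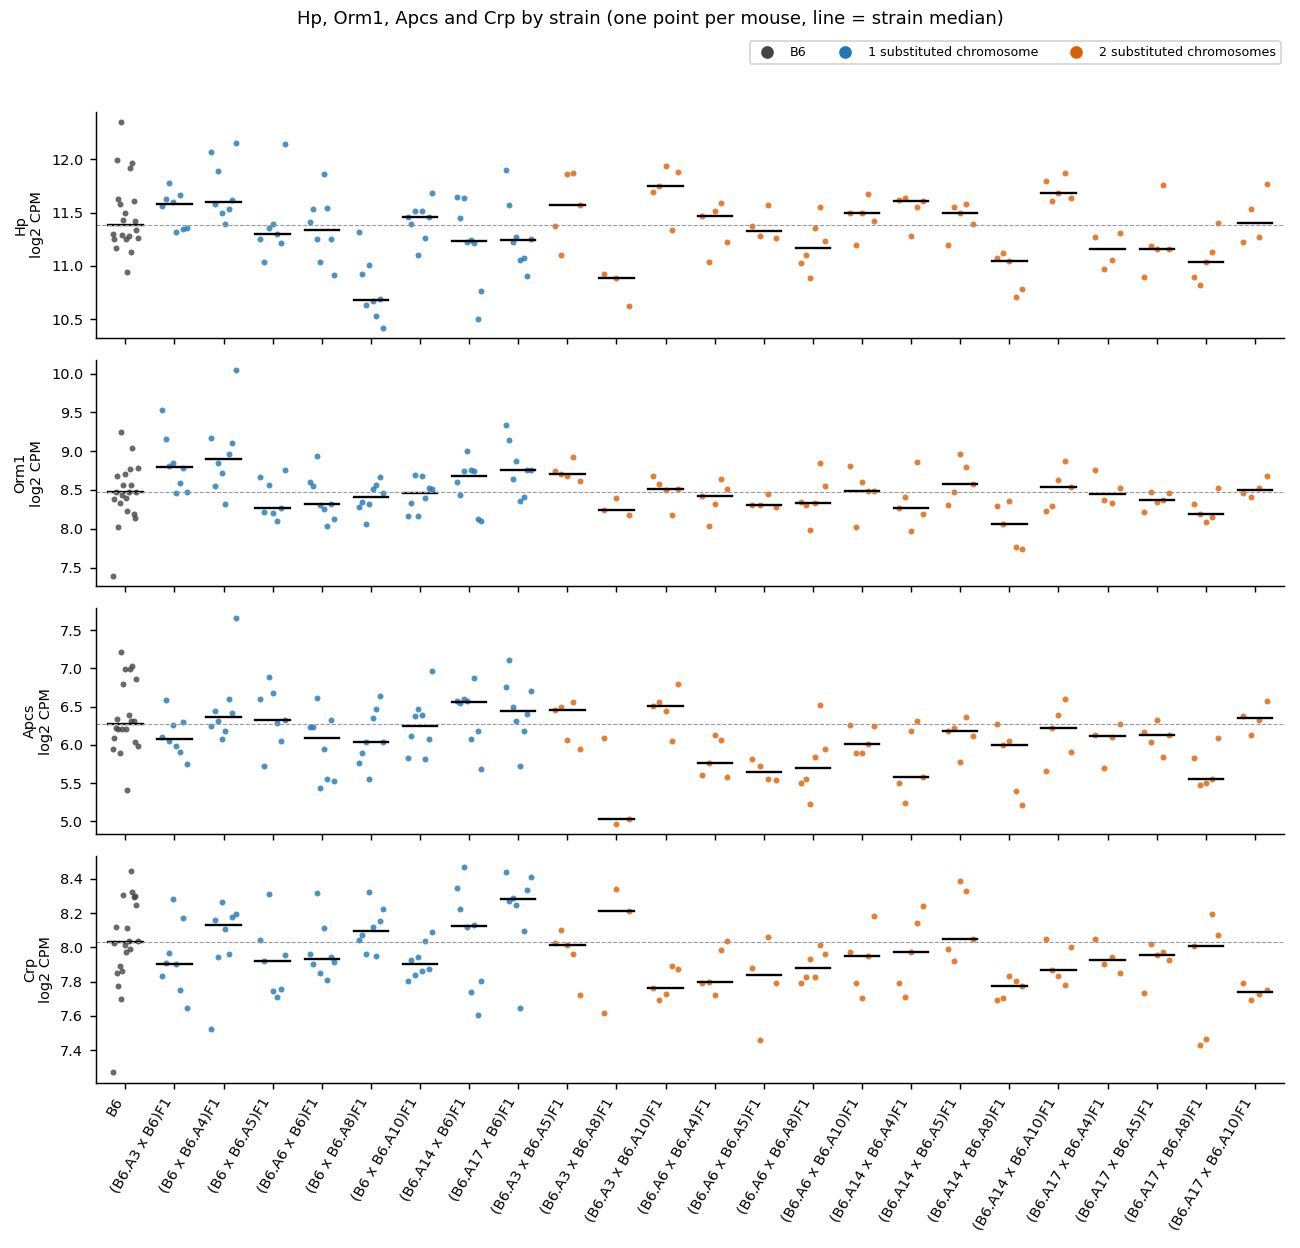
Hp, Orm1, Apcs and Crp in every mouse, as log2 CPM, by strain (points are mice, gray for B6, blue for single and orange for double CSS, black bars are strain medians and the dashed line is the B6 median). The (B6 x B6.A8)F1 mice had the lowest strain median of Hp (1639 CPM), and single high mice are fewer than for Saa1.

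Across the 24 strains, as the plots of log2 CPM by strain show, the median of Saa1 ran from 17.1 CPM in (B6.A14 x B6.A4)F1 to 109 in (B6 x B6.A4)F1, and that of Saa2 from 7.81 in (B6 x B6.A5)F1 to 46.6 in (B6 x B6.A4)F1. Mice of these end strains overlapped. Medians of Saa3 ran from 2.81 in (B6.A14 x B6.A4)F1 to 5.71 in (B6 x B6.A8)F1, and of Orm1 from 267 in (B6.A14 x B6.A8)F1 to 479 in (B6 x B6.A4)F1. Those of Orm2 ran from 5.40 in (B6 x B6.A5)F1 to 12.01 in (B6.A3 x B6)F1, of Crp from 214 in (B6.A17 x B6.A10)F1 to 311 in (B6.A17 x B6)F1, and of Apcs from 32.6 in (B6.A3 x B6.A8)F1 to 94.1 in (B6.A14 x B6)F1. For these 5 genes too, mice of the end strains overlapped. Without E733 the median of (B6.A14 x B6.A4)F1 was 20.5 CPM for Saa1 and 3.93 for Saa3, and the lowest strain was then (B6.A17 x B6.A5)F1 for Saa1 (17.5) and (B6 x B6.A5)F1 for Saa3 (2.82). The end strains did not overlap for Saa4 (median 103.5 in (B6.A17 x B6.A4)F1, 206 in (B6.A3 x B6.A5)F1), Hp (1639 in (B6 x B6.A8)F1, 3439 in (B6.A3 x B6.A10)F1) and Lcn2 (4.400 in (B6.A3 x B6.A8)F1, 30.7 in (B6.A3 x B6.A10)F1), pairs that were picked as the extremes of 24 and were not tested. Mice of neighboring strains overlapped throughout the order of each of the 10 genes.

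Single mice with high Saa1 differed in which other genes were high. The highest was E748, a (B6 x B6.A4)F1 mouse (replicate 8), at 2093 CPM, and it also ranked 1 of all mice for Saa2 (1755), Saa3 (34.1), Orm1 (1055), Orm2 (67.8) and Apcs (201). In the same mouse Hp ranked 2 (4561 CPM), Lcn2 ranked 5 (67.2), Saa4 ranked 24 (176.02) and Crp ranked 27 (293). Mouse E748 was thus among the highest for 8 of the 10 genes, and less so for Saa4 and Crp. The B6 mouse E752 ranked 2 for Saa1 and for Lcn2 (170.5 CPM), but only 21 for Orm2 (12.5 CPM). The B6 mouse E422 ranked 1 for Lcn2 and for Hp (5217), 2 for Apcs and 3 for Orm2, yet its Crp, 208 CPM, ranked 142. The (B6.A3 x B6)F1 mouse E187 had the third highest Saa1, 901 CPM, and ranked 2 for Orm1 (739) and Orm2 (63.1), whereas its Hp, 3028 CPM, ranked 45 and its Lcn2, 25.1 CPM, ranked 30. In E103, a (B6 x B6.A4)F1 mouse with 783 CPM of Saa1, Orm2 and Hp both ranked 4 (55.4 and 4297 CPM) and Crp ranked 150 (184 CPM). Of the 10 mice with the highest Saa1, 8 were also among the 10 highest for Saa2, 8 for Orm1, 7 for Orm2 and 5 for Saa3. The overlap was 4 each for Lcn2, Hp and Apcs, 2 for Saa4 and 1 for Crp.

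Marker genes of immune cells were high in some of these mice and low in others. The summed level of 12 Kupffer cell and macrophage markers, all of them detected, ranged from 343 to 898 CPM over all mice (median 530.1), and in the 10 mice with the highest Saa1 it ran from 478 in E138 and 496.4 in E422, below the median of all mice, to 718 in E752 (rank 8) and 898 in E125 (rank 1), with 630 in E748 (rank 21). Of 12 neutrophil markers 4 were in the table, with a sum of 2.78 to 19.8 CPM (median 5.25), and the defining genes Ly6g, Mpo and Elane were not among the 4. E422 ranked 1 for this sum (19.8), E752 ranked 3 (17.2), E103 ranked 7 (12.1) and E748 ranked 33 (6.86), whereas E187 (4.89), E125 (3.64) and E138 (3.28) lay below the median, and the other 3 lay between ranks 20 and 62. The part of these cells in the high values was not tested, and in RNA from liver tissue fewer cells of a type and less RNA per cell cannot be told apart.

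**Figure D3:**
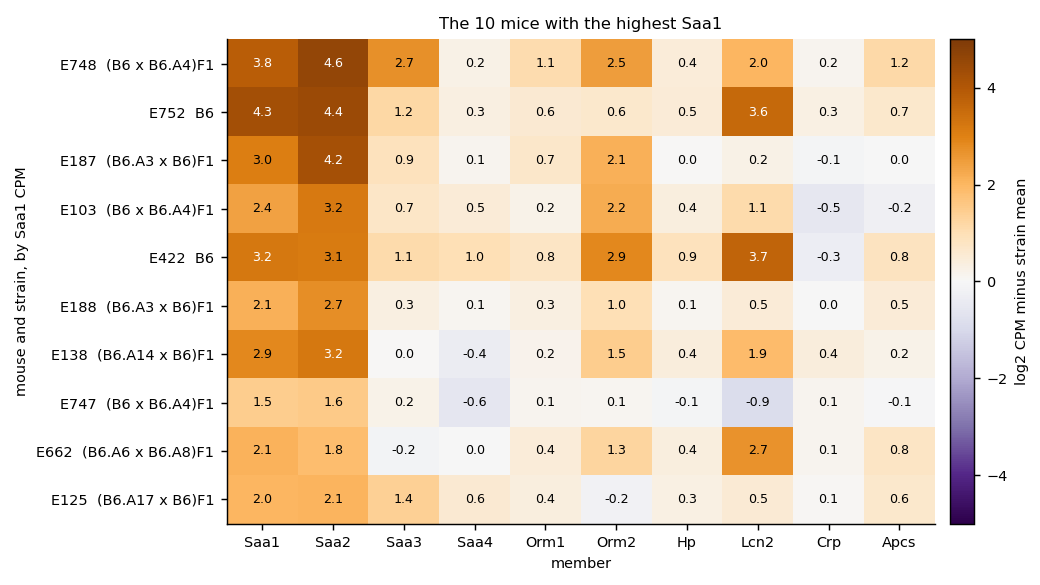
The 10 mice with the highest Saa1, from E748 on, against the 10 genes, with color and number giving log2 CPM minus the mean of the mouse's strain. Saa1, Saa2 and Orm2 are raised in most of these mice, whereas Crp lies on either side of its strain mean, from -0.52 in E103 to 0.42 in E138.

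To describe what varied together apart from genotype, strain means were subtracted and each of the 45 pairs of genes was correlated over all mice, with two-sided permutation of mice within strains (100000 permutations) and Benjamini-Hochberg adjustment over the 45. Saa1 and Saa2 were closest, with Pearson's r of 0.946 and Spearman's rho of 0.905, and r of 0.937 without the 2 mice farthest from the median of Saa1. Saa1 also varied with Orm1 (r 0.754, rho 0.686), Orm2 (r 0.733, rho 0.636), Lcn2 (r 0.691, rho 0.621) and Hp (r 0.533, rho 0.464). For each of these the permutation p was 1e-05, the smallest that 100000 permutations can give, and the adjusted p was 2.05e-05 for r and 2.65e-05 for rho. Hp and Lcn2 formed another close pair (r 0.778, rho 0.746), as did Saa2 and Orm2 (r 0.780, rho 0.692). Crp varied with Orm1 (r 0.319, rho 0.286, adjusted permutation p 0.00121 and 0.00184) and Apcs (r 0.237, rho 0.232, adjusted permutation p 0.0130 and 0.0109). Its r with Saa1 was 0.194 and its rho 0.205 (adjusted permutation p 0.0536 and 0.0311), and with Saa3 they were -0.0795 and -0.141. In all, rho was positive in 43 of 45 pairs, and 37 pairs passed an adjusted p of 0.05 for r and 34 for rho. With the 5 surrogate variables subtracted as well, 15 of the 45 values of r moved by more than their standard error, and no pair that had passed changed sign. Library batches were not named in the labels used here, so that no value within batches could be given.

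**Figure D4:**
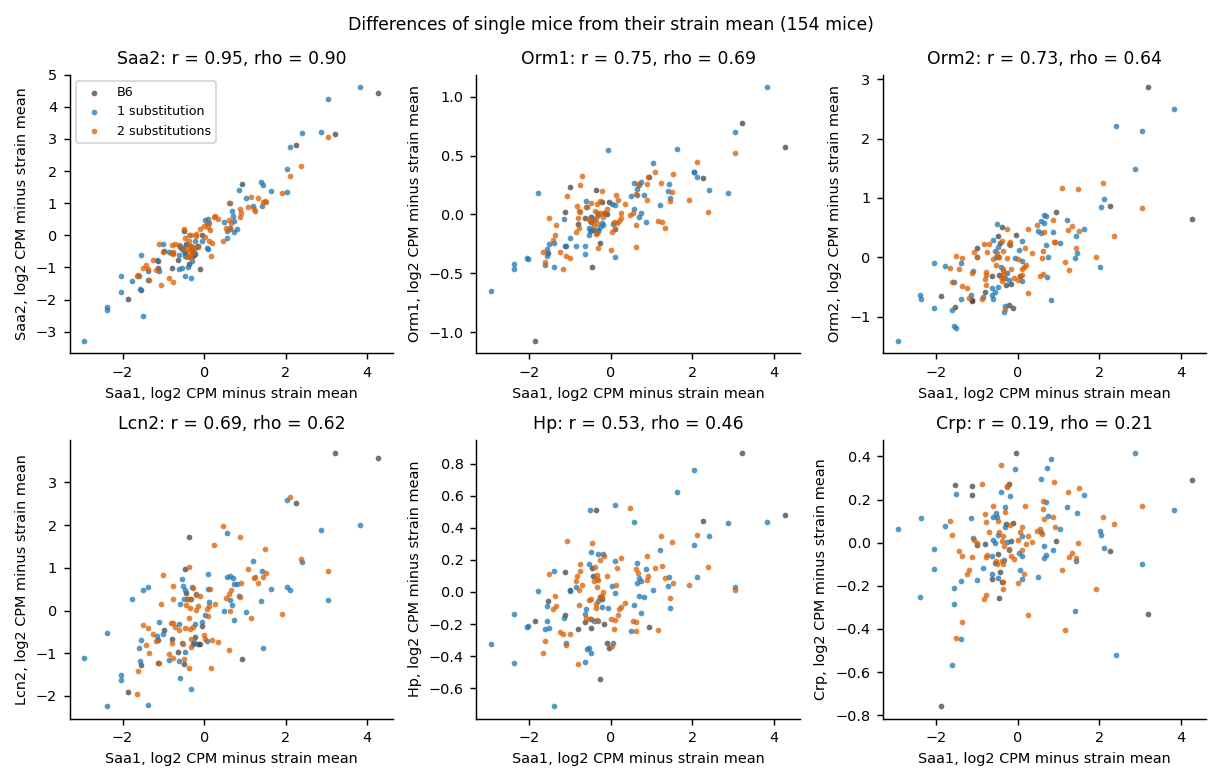
Log2 CPM of 6 genes against that of Saa1, each as the difference from the strain mean, 1 point per mouse, in all mice. Saa2 follows Saa1 closely (r 0.946), Orm2, Orm1 and Lcn2 follow with more spread, and Crp has the lowest r of the 6 (0.194).

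The copies of a pair did not keep a constant ratio. Saa2 counts were 0.382 of Saa1 counts in the median mouse, and 0.185 to 0.841 over all mice. The ratio was 0.838 in E748, 0.841 in E103 and 0.805 in E187, near the top of the range, but 0.397 in E752 and 0.343 in E422. In the other 5 of the 10 mice with the highest Saa1, all of CSS strains, it was 0.328 in E662, 0.365 in E125, 0.498 in E138, 0.524 in E747 and 0.548 in E188, so that high Saa1 went with high as well as low ratios. Orm2 counts were 0.0201 of Orm1 counts in the median mouse, and 0.00830 to 0.0978 over all mice. Reads of these copies can be hard to place, since 31.5% of the 50-base words of Saa1 transcripts and 30% of those of Saa2 occur in transcripts of another gene, nearly all of them in the other copy, as do 20.4% of those of Orm1 and 22.7% of those of Orm2. The share was 4.15% for Saa3, 1.27% for Saa4 and 0.56% for Crp, and 0 for Hp, Lcn2 and Apcs. Values of the first 4 are uncertain to that extent.

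Genes outside the list that varied most like its members over all mice, by Spearman's rho after subtraction of strain means, were largely other secreted liver proteins. For Saa1 they were Lrg1 (0.655), Hpx (0.572), which binds heme, Fgl1 (0.524), Wfdc21 (0.523) and Prg4 (0.502), and for Saa2 Hpx (0.626), Lrg1 (0.541), Fgl1 (0.522), the complement gene Hc (0.482) and Wfdc21 (0.464). For Lcn2 they were Lrg1 (0.722), the hyaluronan-binding gene Itih3 (0.629), the protease inhibitors Serpina3n (0.621) and Serpina3m (0.609), and Cyp3a13 (0.592). Hp had nearly the same neighbors, Itih3 (0.603), Lrg1 (0.596), Ifitm2 (0.591), Serpina3m (0.580) and Cyp3a13 (0.577). Orm1 was nearest to Fgl1 (0.692), Wfdc21 (0.648), Cd302 (0.619), Hpx (0.597) and Cpb2 (0.582), and Apcs to Fgl1 (0.698), Cd302 (0.588), Yeats4 (0.523), Rpl4 (0.519) and Prg4 (0.513). All 12 Kupffer cell and macrophage markers had a positive rho with Saa1 (median 0.188), as had all 4 neutrophil markers (median 0.203), and 1 of 8 hepatocyte markers (median -0.0904), against a median of -0.00655 over all genes. With Hp the order differed, 3 of the 12 Kupffer cell and macrophage markers having a positive rho (median -0.0230), against all 4 neutrophil markers (median 0.207) and 7 of 8 hepatocyte markers (median 0.169). With Apcs all 12 Kupffer cell and macrophage markers (median 0.276), 3 of 4 neutrophil and 4 of 8 hepatocyte markers were positive.

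Main effects of each substitution relative to control B6 mice, and interactions in each double CSS, were then estimated in one model of all mice with the 5 surrogate variables. The model was fitted to counts, whereas an unadjusted difference, given beside some effects, is one of mean log2 CPM without surrogate variables. A single high mouse weighs more in a model of counts than in a mean of logs. How much of a gap either accounts for was not tested. FDR denotes the p of the quasi-likelihood test in edgeR after Benjamini-Hochberg adjustment, which was made separately for genes on the substituted chromosomes (cis) and elsewhere (trans), and effects are log2 fold changes with their standard error (SE). A main effect below an FDR of 0.05 is a meQTL and an interaction below it an ieQTL. Only Orm1 and Orm2 (chromosome 4) and Hp (chromosome 8) lay on a substituted chromosome. Of 80 main effects of the 10 genes, 17 passed, 8 of them higher and 9 lower. Of all gene and substitution pairs 11.1% passed. All contrasts share the same 20 B6 mice, so that they are not independent of each other, and a few mice decided many of the calls. The model has a single estimate of the spread of each gene for all strains, although the spread of genes such as Saa1 differed between strains. An SE or FDR therefore does not measure the spread within the strains compared.

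In (B6 x B6.A4)F1, 6 genes were higher than in B6 (7.60% of all genes were higher, and 13.5% passed in either direction). Saa1 in the 8 mice was 19.1, 28.2, 51.8, 100.9, 118, 403, 783 and 2093 CPM, so that 6 of 8 lay above the B6 median and 1 above the highest B6 mouse. The effect was 2.004 (SE 0.57, FDR 0.0117). Saa2 ranged from 7.33 to 1755 CPM (median 46.6), with 2 mice above all B6 mice, and its effect was 2.84 (SE 0.58, FDR 0.000432). Saa3 ranged from 1.16 to 34.1 CPM (median 5.20), an effect of 1.21 (SE 0.24, FDR 0.000301). The orosomucoid genes were higher in cis, Orm1 at 319 to 1055 CPM (median 479) by 0.58 (SE 0.12, FDR 6.57e-05) and Orm2 at 4.41 to 67.8 CPM (median 7.598) by 1.04 (SE 0.31, FDR 0.00654). Hp was 2693 to 4561 CPM, above the B6 median in 8 of 8 mice and above all B6 mice in none, by 0.29 (SE 0.10, FDR 0.0464). The median effect of the 10 genes was 0.44, against -0.00 for all genes. These calls rested on the mice E748 and E103. Without E748, 2 of the 6 passed, Saa2 (1.77, FDR 0.0491) and Orm1 (0.37, FDR 0.0184), and without E103, 3 passed, Saa2, Saa3 and Orm1. Without both, none of the 10 passed, and the effects of Saa1 and Orm2 turned to -0.29 (FDR 0.844) and -0.72 (FDR 0.145), with Saa2 at 0.11 (FDR 0.953), Saa3 at 0.20 (FDR 0.712), Orm1 at 0.23 (FDR 0.207) and Hp at 0.06 (FDR 0.822).

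In (B6 x B6.A8)F1, 5 genes passed, 4 lower and 1 higher, against 29.6% of all genes (16.7% lower and 12.9% higher). Hp, in cis, was lower in every mouse than the B6 median, with values of 1368, 1481, 1590, 1626, 1653, 1935, 2058 and 2544 CPM, and 6 of 8 lay below the lowest B6 mouse at 1961. Its effect was -0.56 (SE 0.12, FDR 5.83e-05), and it passed in each of 20 settings of the analysis. Lcn2 ranged from 1.76 to 9.50 CPM (median 6.19) and lay below the B6 median in 7 of 8 mice. Its effect was -2.23 (SE 0.54, FDR 0.000643), larger than the unadjusted difference of mean log2 CPM, -1.38. Saa1 ranged from 22.96 to 64.5 CPM (median 34.6), within the range of B6, with an effect of -1.83 (SE 0.70, FDR 0.0358) against an unadjusted difference of -0.54. Apcs ranged from 46.8 to 99.2 CPM (median 65.6), with an effect of -0.44 (SE 0.17, FDR 0.0342). Saa3 went the other way, above the B6 median in 8 of 8 mice at 3.33 to 18.8 CPM (median 5.71), by 0.83 (SE 0.28, FDR 0.0171). The median effect of the 10 genes was -0.50, against -0.01 for all genes. Without the B6 mice E752 and E422, whose Saa1 and Lcn2 were the highest of the controls, the effect was -0.02 for Saa1 (FDR 0.986), -0.89 for Lcn2 (FDR 0.151) and -0.31 for Apcs (FDR 0.1496), whereas Hp (-0.42, FDR 0.00190) and Saa3 (1.14, FDR 0.000771) still passed.

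Lcn2 was also lower with chromosome 6, 14 or 17, each in the single strain. For chromosome 6 (2 genes lower, against 3.79% of all genes lower and 8.09% in either direction) Lcn2 was 2.60 to 11.1 CPM (median 6.10), an effect of -1.59 (SE 0.50, FDR 0.0317), and Saa1 was 18.7 to 44.98 CPM (median 28.8), an effect of -1.98 (SE 0.67, FDR 0.0476). For chromosome 14 (2 genes lower, against 12.6% of all lower and 22.5% in either direction) Lcn2 was 2.22 to 40.5 CPM (median 12.9), above the B6 median of 8.96, while the fitted effect was -1.36 (SE 0.46, FDR 0.0215) and the unadjusted difference -0.40. Hp there was 1446 to 3198 CPM (median 2405), an effect of -0.29 (FDR 0.0430). For chromosome 17 (1 gene lower, against 1.96% of all lower and 3.67% in either direction) Lcn2 was 2.57 to 12.1 CPM (median 10.7), again above the B6 median, with an effect of -1.79 (SE 0.51, FDR 0.0343) against an unadjusted difference of -0.79. Mice of all 3 strains overlapped with B6. None of these 5 calls held without E752 and E422, when Lcn2 was at -0.65 (FDR 0.355), -0.13 (FDR 0.861) and -0.73 (FDR 0.384) in the order given, Saa1 in (B6.A6 x B6)F1 at -0.66 (FDR 0.512) and Hp in (B6.A14 x B6)F1 at -0.16 (FDR 0.281).

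In (B6.A3 x B6)F1, 1 gene passed, Orm1, which was higher (1.94% of all genes were higher, and 3.70% passed in either direction), at 352 to 739 CPM (median 445) and by 0.40 (SE 0.12, FDR 0.0327). Saa1 in this strain ranged from 26.2 to 901 CPM, with E187 at 901 and E188 at 471.9, and its effect of 1.29 (SE 0.58) had an FDR of 0.221. Orm2 ranged from 6.34 to 63.1 CPM, with an effect of 0.83 (SE 0.30, FDR 0.105). Without E187 or without E188 no gene passed in this strain, and without the B6 mouse E422 there were 4 that did. No gene passed in (B6 x B6.A5)F1 (0.768% of all genes) or in (B6 x B6.A10)F1 (6.64%) by edgeR or by DESeq2. At an unadjusted p under 0.05 there were 4 in (B6 x B6.A5)F1, Saa1 (-1.49), Saa2 (-1.77), Orm2 (-0.86) and Lcn2 (-1.20), and 0 in (B6 x B6.A10)F1, although Saa1 was above the B6 median in 8 of 8 mice of the latter strain (40.1 to 239 CPM, median 82.8) with a fitted effect of -0.12.

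**Figure D5:**
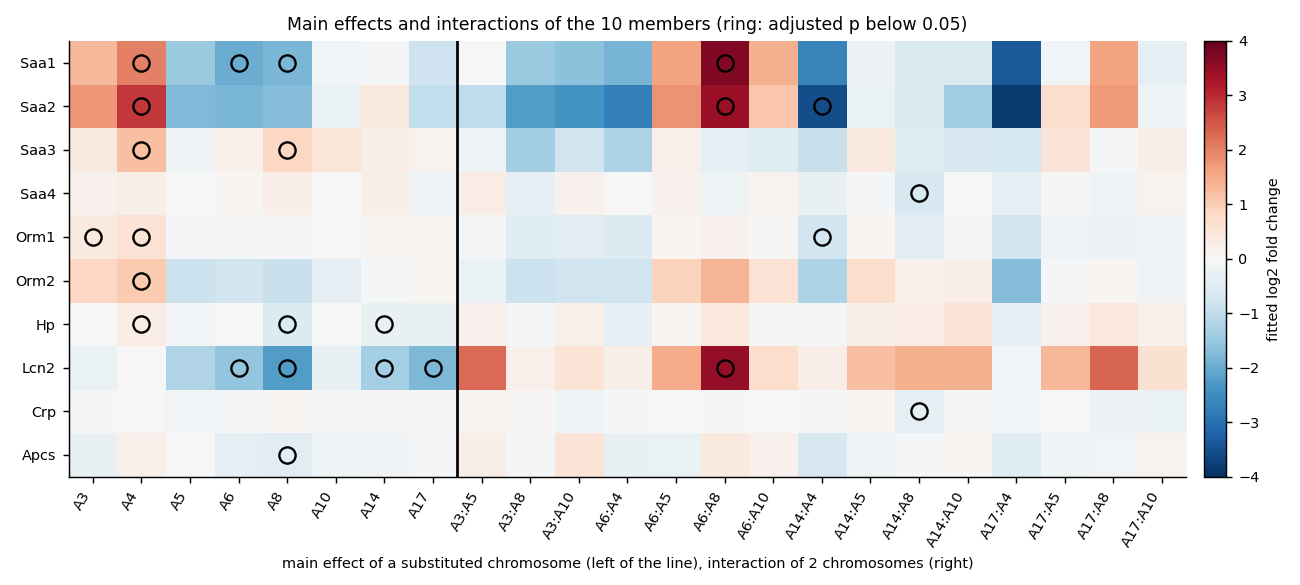
Effects on the 10 genes (log2 fold change, by color) for the 8 main effects on the left and the 15 interactions on the right, with rings at an FDR under 0.05 (A3 stands for the A/J chromosome 3, and A6:A8 for the interaction of chromosomes 6 and 8). Rings on the left are most numerous for chromosomes 4 (6 genes) and 8 (5 genes), and on the right there are 7 in 3 crosses.

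An interaction is the departure of a double CSS from the sum of the main effects of its chromosomes, on the log2 scale. Of 150 interactions, 7 passed in 3 of the 15 crosses, with 3 positive and 4 negative, against 5.96% of all gene and cross pairs, a share near the background.

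In (B6.A6 x B6.A8)F1, 3 genes had a positive interaction, against 13.4% of all genes (24.8% in either direction). Lcn2 in the 6 mice was 4.01, 4.92, 5.47, 11.8, 19.01 and 69.9 CPM, and the single strains had medians of 6.10 (chromosome 6) and 6.19 (chromosome 8). Its interaction was 3.51 (SE 0.78, FDR 0.000278). Saa1 was 22.7, 27.1, 49.1, 75.5, 165.7 and 299.6 CPM, against medians of 28.8 and 34.6 in the single strains, and its interaction was 3.71 (SE 1.01, FDR 0.00344). Saa2 was 10.5 to 98.4 CPM (median 27.8), an interaction of 3.44 (SE 1.06, FDR 0.00968). The double strain itself did not differ from B6 by this test, at -0.10 for Saa1 (FDR 0.973), -0.11 for Saa2 (FDR 0.971) and -0.31 for Lcn2 (FDR 0.839). Fitted main effects of chromosomes 6 and 8 were -1.98 and -1.83 for Saa1 and -1.59 and -2.23 for Lcn2. The unadjusted difference of Saa1 between the double strain and B6 was 0.43, with medians of 62.3 and 38.9 CPM. The mouse E662 had the highest value of all 3 genes. Without it Saa1 (3.12, FDR 0.0209) and Lcn2 (2.41, FDR 0.0256) passed and Saa2 did not. Without the B6 mice E752 and E422 Lcn2 passed (2.37, FDR 0.00510), and Saa1 (2.09, FDR 0.0792) and Saa2 (1.92, FDR 0.138) did not. Lcn2 passed in each of 26 settings, with values from 2.25 to 4.14.

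In (B6.A14 x B6.A4)F1, 2 genes had a negative interaction, against 2.05% of all genes (4.63% in either direction). Saa2 was 5.88, 9.28, 10.3, 10.4 and 126.5 CPM, the last in E742, with an interaction of -3.55 (SE 1.05, FDR 0.0327). Orm1, in cis, was 251, 291, 307, 339 and 465 CPM, compared with a median of 479 in (B6 x B6.A4)F1 and 355 in B6, with an interaction of -0.78 (SE 0.21, FDR 0.0202). Both calls depended on single mice of either strain. Neither passed without E748 (Saa2 -2.55, FDR 0.147, and Orm1 -0.56, FDR 0.102) nor without E733 (Saa2 -3.37, FDR 0.0757, and Orm1 -0.71, FDR 0.0520), and without E103 Orm1 (-0.71, FDR 0.0343) passed and Saa2 (-2.99, FDR 0.0801) did not. Leaving out E744 of the double strain also left 0 calls, and leaving out E485 or E732 left 1. Without E742, whose value was the highest of its strain, 3 genes passed, with Saa2 at -5.11 and Orm1 at -0.97.

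In (B6.A14 x B6.A8)F1, 2 genes had a negative interaction, against 14.3% of all genes (32.4% in either direction). Crp was 207 to 228 CPM (median 218), an interaction of -0.38 (SE 0.13, FDR 0.0228), and Saa4 was 76.0 to 152 CPM (median 123), an interaction of -0.63 (SE 0.26, FDR 0.0482). Crp had an FDR under 0.05 in 23 of 25 settings and Saa4 in 15 of 25. These counts include the setting with a threshold of 0.01, which neither gene met. Leaving out replicate 1, 2 or 3 of the double strain left 1 call. The other 12 crosses together had 0 calls by edgeR, with 0 to 4 genes per cross at an unadjusted p under 0.05, and 3 calls by DESeq2.

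The cis genes can be followed from one background to another. Hp medians in the 5 strains with an A/J chromosome 8 were 1639 in (B6 x B6.A8)F1, 1894 in (B6.A3 x B6.A8)F1, 2097 in (B6.A17 x B6.A8)F1, 2118 in (B6.A14 x B6.A8)F1 and 2305 in (B6.A6 x B6.A8)F1, all below the B6 median of 2666. The effect of chromosome 8 on Hp passed on the (B6.A3 x B6)F1 background (-0.63, FDR 0.0200), and not on those of chromosome 14 (-0.26, FDR 0.178), 17 (-0.13, FDR 0.741) or 6 (-0.14, FDR 0.624), although none of the Hp interactions passed. Against B6, Hp was lower in (B6.A3 x B6.A8)F1 (-0.62, FDR 0.00670), (B6.A14 x B6.A8)F1 (-0.55, FDR 0.000896) and (B6.A17 x B6.A8)F1 (-0.43, FDR 0.0127). For Orm1, the effect of chromosome 4 was -0.20 (FDR 0.533), -0.14 (FDR 0.699) and 0.03 (FDR 0.960) on the backgrounds of chromosome 14, 17 and 6, and for Orm2 -0.18, -0.68 and 0.26, none of which passed.

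Compared with B6, Apcs was called lower in 4 of the 15 double CSS strains and Hp in 3. Fitted differences lay below 0 in all 15 for Saa1, Saa2 and Orm2, of which none was called, in 14 for Lcn2 and in 13 each for Apcs and Crp. All of them use the same B6 mice, among which Saa1 was highest in E752 (997 CPM) and E422 (478 CPM). Unadjusted, mean log2 CPM of Saa1 was above B6 in (B6.A6 x B6.A8)F1 (0.43) and (B6.A3 x B6.A5)F1 (0.35), and below B6 in the other double strains. The 4 strains of Apcs were (B6.A3 x B6.A8)F1 with mice at 31.1, 32.6 and 68.0 CPM (-0.82, FDR 0.0428), (B6.A17 x B6.A8)F1 at 44.2 to 68.1 CPM (-0.63, FDR 0.0304), (B6.A14 x B6.A8)F1 at 37.1 to 77.02 CPM (-0.62, FDR 0.0365) and (B6.A14 x B6.A4)F1 at 37.6 to 79.4 CPM (-0.57, FDR 0.0237, and -0.65, FDR 0.0252 without E733). Mice of each overlapped with the B6 range of 42.4 to 148. The highest B6 mice for Apcs were E422 (148 CPM) and E752 (130.3 CPM), without which the main effect of chromosome 8 on Apcs did not pass. These comparisons of double strains with B6 were not fitted without them. In all, 9 of 150 comparisons of a double strain with B6 passed (3.98% of all gene and strain pairs), the 4 of Apcs, 3 of Hp, Lcn2 in (B6.A14 x B6.A8)F1 (-2.18, FDR 0.0233) and Saa4 in (B6.A3 x B6.A5)F1, which was higher at 172 to 250.3 CPM (0.48, FDR 0.0411). Of 300 effects of a substitution on the background of another, 12 passed (3.43% of all pairs). Of the 3 of chromosome 14 on chromosome 4, Apcs passed without E733 as well (-0.83, FDR 0.0435), and Saa2 (-2.98, FDR 0.124) and Orm1 (-0.63, FDR 0.0658) did not. Also among the 12 were the lower Saa1 (-3.83, FDR 0.0343) and Saa2 (-4.56, FDR 0.0131) with chromosome 6 added to chromosome 4. There the double strain ranged from 13.2 to 52.7 CPM for Saa1. Its comparator (B6 x B6.A4)F1 had a Saa1 median of 109 CPM, with E748 at 2093 and E103 at 783, and the contrast was not fitted without these mice. Another of the 12 was the higher Hp with chromosome 10 added to chromosome 14 (0.53, FDR 0.00912). In the joint test of all 23 strain coefficients 9 of the 10 genes passed, all but Crp (FDR 0.0747), against 51.4% of all genes. In that of all 15 interactions 6 passed, Saa1 (FDR 0.000727), Saa2 (0.000139), Orm1 (0.00871), Orm2 (0.0409), Hp (0.0143) and Lcn2 (0.00388), against 27.4% of all genes.

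Other genes of the response were called both where these members were and elsewhere. Of 31 further positive acute-phase genes 28 were in the table. In (B6 x B6.A8)F1, 17 of them were lower and none higher (16.7% of all genes were lower), with a median effect of -0.53, among them the metallothionein Mt1 (-1.06), Itih4 (-0.86), Serpina3n (-0.85) and the interleukin 1 receptor antagonist Il1rn (-0.80). In (B6.A14 x B6)F1 15 were lower and none higher (12.6% of all were lower, median -0.37), with the transferrin receptor Tfrc at -0.73, Itih3 at -0.68, complement C3 at -0.66 and Itih4 at -0.65. In (B6.A6 x B6)F1 4 were lower and none higher (3.79% of all were lower). In (B6 x B6.A4)F1, where 6 of the 10 members were higher, 2 were higher and 2 lower (7.60% and 5.88% of all, median 0.01). In (B6.A6 x B6.A8)F1, 14 of the 28 had a positive interaction and none a negative one (13.4% of all were positive, median 0.59), with Lrg1 at 1.33, Serpina3n at 1.26, Itih4 at 1.24 and Il1rn at 1.16. In (B6.A14 x B6.A8)F1, 14 were also positive and none negative (18.1% of all were positive, median 0.61), led by C3 (1.24), Mt1 (1.19), Itih4 (1.14) and Tfrc (1.04), while the called members there, Crp and Saa4, were negative. Where no member was called, 10 of the 28 were positive with chromosomes 17 and 8 together (4.95% of all genes), 9 with 14 and 5 (2.49%) and 6 with 14 and 10 (2.45%), and none was negative in these 3 crosses. All counts of the lists, here and below, come from the fit of all mice. They were not made again without E752 and E422 or without E748 and E103, on which many of the members' calls depended.

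Genes listed here as negative acute-phase genes, which does not mean that each of them falls in the mouse, and the signaling genes above the response were counted in the same way. Of 12 negative acute-phase genes, such as albumin and transthyretin, 7 were lower and 1 higher in (B6 x B6.A8)F1 (16.7% and 12.9% of all genes, median -0.30), and 6 were lower and none higher in (B6.A14 x B6)F1 (12.6% of all lower). With chromosome 4 none was higher and 1 lower, Serpina6 (-0.42). In (B6.A6 x B6.A8)F1 5 had a positive interaction and none a negative one (13.4% of all positive), and in (B6.A14 x B6.A8)F1 7 a positive and 1 a negative one (18.1% and 14.3% of all, median 0.46). Of 30 cytokine receptor and signaling genes 27 were in the table, without Il6 and Tnf. In (B6 x B6.A8)F1 9 were lower and 2 higher (16.7% and 12.9% of all genes). Among the lower were Il1r1 (-0.62), the interleukin 6 receptor Il6ra (-0.59), Stat3 (-0.57) and Cebpb (-0.45). With chromosome 4, 4 were lower, Tnfaip3 (-0.70), Il6ra (-0.53), Nfkbiz (-0.38) and Myd88 (-0.22), and 1 was higher (5.88% and 7.60% of all). In (B6.A6 x B6.A8)F1 9 had a positive and 2 a negative interaction (13.4% and 11.4% of all), with Stat3 (0.79) and Il6ra (0.63) among the positive. In (B6.A14 x B6.A8)F1 8 had a positive and 3 a negative one. The hepatocyte markers overlap with the negative acute-phase genes, since Alb, Apoa1, Ttr and Serpina1a are in both lists. Of these markers 7 of 8 were lower in (B6 x B6.A8)F1 (median -0.32), and 5 of 8 had a positive interaction in (B6.A6 x B6.A8)F1 (median 0.33). Their summed level was 55657 to 114490 CPM (median 82837) in (B6 x B6.A8)F1, against 103651 to 161535 (median 122873) in B6. Of the 12 Kupffer cell and macrophage markers 1, Marco, was lower in (B6 x B6.A8)F1 (-1.18), while 2 were higher and 1 lower with chromosome 4. No neutrophil marker passed in either strain. Of 6 adipocyte markers 2 were in the table, Cidec and Fabp4, and both were lower with chromosome 8 as well as with chromosome 6 and had a positive interaction in (B6.A6 x B6.A8)F1 (2.53 and 0.58). Both were also lower with chromosome 10 (-1.62 and -0.71, 2.97% of all genes lower), where no member was called, and 1 of them was lower with each of chromosomes 4, 5 and 14. The listed markers Adipoq, Plin1, Cfd and Lep were not in the table, so that Cidec and Fabp4 alone do not show a change in adipocytes. The part of any of these lists or cell types in the members' effects was not tested.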

How the data were processed

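RNA sequencing of total RNA from liver was analyzed in 20 B6, 63 single CSS and 71 double CSS mice. The authors sequenced stranded libraries as single reads, aligned them with TopHat2 to mm10, aligned unmapped reads again to individualized A/J genomes, counted reads per gene with HTSeq and removed genes with low counts and a few outlying mice before they deposited the table. Its values are raw counts for 13289 genes, of which 13242 were matched to symbols and positions in a GENCODE annotation of mm10 and 47 were treated as trans. Counts of all genes were fitted with edgeR 4.0.16 in R 4.3.3 (quasi-likelihood test, legacy=TRUE, TMM library sizes) with terms for 8 main effects and 15 interactions and with 5 surrogate variables made by svaseq (sva 3.50.0), the design of the study's methods. Benjamini-Hochberg adjustment was made over all genes of an effect, separately in cis and trans, at 0.05. The double CSS and background contrasts are sums of these coefficients. Log2 CPM used a prior count of 2. The script was tested on simulated counts.

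The 10 members and the gene lists were chosen with earlier results of these data known, and no list is independent evidence of its direction. Single mice were left out after their values had been seen. In each comparison, up to 4 called genes of a list with the largest effects were named, and for 6 members the 5 most similar genes were named among those whose log2 CPM averaged 2 or more. Depth ranged from 4638701 to 30465477 counts, so that low genes such as Saa3 (11 counts in the lowest mouse) are less precise. Alternatives were DESeq2 1.42.0, limma 3.58.1 (limma-trend), 0 or 10 surrogate variables, other size factors, count filters (15 counts in 75% of mice or in every mouse), robust=TRUE, legacy=FALSE, adjustment over all genes together, an FDR of 0.01, and mice left out, with surrogate variables kept where each double CSS mouse was left out in turn. No 2 mice agreed within sampling noise (lowest chi-square per gene 8.81 between mice of 1 strain). Correlations and figures used Python 3.11.15 with pandas 2.3.3, scipy 1.17.1 and matplotlib 3.10.9, and the start regions of Saa1 and Saa2 were aligned with Biopython 1.88.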

Additional observations from a re-analysis of the deposited data

Results flagged for a closer look

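In 15 of 220 groups tested, each 1 gene in 1 strain of 4 to 10 mice, a single mouse stood apart from the rest by Dixon's criterion, which chance meets in about 1 in 20 groups. The mouse was the highest in 11 and the lowest in 4. Mouse E742 of (B6.A14 x B6.A4)F1 was marked for Saa1 (250.3 CPM) and Saa2 (126.5 CPM), and E748 of (B6 x B6.A4)F1 for Apcs (201 CPM). Of the serum amyloid A genes, Saa2 was also marked in E464 of (B6.A17 x B6.A5)F1 (13.6 CPM), Saa3 in E117 of (B6 x B6.A8)F1 (18.8 CPM), and Saa4 in E642 of (B6.A6 x B6.A4)F1 (304 CPM) and E73 of (B6.A6 x B6.A5)F1 (214.8 CPM). Orm2 was marked in E662 of (B6.A6 x B6.A8)F1 (18.6 CPM), Hp in E96 of (B6 x B6.A5)F1 (4516 CPM), and Lcn2 in E379 of (B6.A17 x B6.A5)F1 (24.5 CPM) and E324 of (B6.A6 x B6.A10)F1 (23.2 CPM). The low mice were E733, a (B6.A14 x B6.A4)F1 mouse, for Hp (2483 CPM), E781 of (B6 x B6.A8)F1 for Lcn2 (1.76 CPM), E103 of (B6 x B6.A4)F1 for Crp (184 CPM) and E268 of (B6.A17 x B6)F1 for Crp (200.6 CPM).

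The effect of a substitution differed between backgrounds, by the interaction test, in 7 of 150 cases, against 5.96% of all gene and cross pairs. Of these only Lcn2 passed in every setting, and the others depended on single mice or on the setting. They were Saa1 (3.71), Saa2 (3.44) and Lcn2 (3.51) in (B6.A6 x B6.A8)F1, Saa2 (-3.55) and Orm1 (-0.78) in (B6.A14 x B6.A4)F1, and Saa4 (-0.63) and Crp (-0.38) in (B6.A14 x B6.A8)F1, on the log2 scale.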

How the results depend on the processing

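The count of members called moved with the setting in the effects that follow, and the cause was not tested. Shares of all genes called in the same setting are not given here, nor for the mice left out below. The counts therefore do not show whether the members moved more than other genes. At an FDR of 0.01 the 17 main effects fell to 6, with 2 for chromosome 8 and 0 for chromosomes 3, 6, 14 and 17, and the interactions of (B6.A14 x B6.A4)F1 and (B6.A14 x B6.A8)F1 fell to 0. With 10 surrogate variables there were 8 main effects, with 1 for chromosome 4 and 0 for 3, 6 and 17, and 0 interactions in (B6.A14 x B6.A4)F1, 1 in (B6.A14 x B6.A8)F1 and 5 in (B6.A6 x B6.A8)F1. With 0 surrogate variables chromosomes 3 and 14 had 0, (B6.A14 x B6.A8)F1 had 1, (B6.A6 x B6.A8)F1 had 5 and the other 12 crosses 7. DESeq2 gave 2 for chromosome 3, 1 in (B6.A14 x B6.A8)F1 and 3 in the other 12 crosses. Limma-trend gave 7 main effects, with 3 each for chromosomes 4 and 8 and 0 for 6, 14 and 17, and 1 interaction each in (B6.A14 x B6.A4)F1 and (B6.A6 x B6.A8)F1. With 15 counts required in every mouse, where Saa3 was not tested, there were 10 main effects, 0 each for chromosomes 3, 6 and 17 and 1 for 14, 0 interactions in (B6.A14 x B6.A4)F1 and (B6.A14 x B6.A8)F1, and 1 in the other 12 crosses. The 75% filter gave 0 for chromosome 3 and 1 in the other 12 crosses, and robust=TRUE 1 for chromosome 6 and 1 in (B6.A14 x B6.A8)F1.

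Chosen after seeing the data, E748, E103, E187, E188, E752, E422 and E733 were each left out, and E748 with E103 and E752 with E422. Counts then ranged from 0 to 4 for chromosome 3 (against 1), 0 to 6 for 4 (against 6), 0 to 2 for 6 (against 2), 3 to 7 for 8 (against 5), 0 to 3 for 14 (against 2) and 0 to 1 for 17 (against 1), and, with each double CSS mouse also left out in turn, 0 to 4 in (B6.A14 x B6.A4)F1 (against 2), 1 to 4 in (B6.A14 x B6.A8)F1 (against 2), 1 to 4 in (B6.A6 x B6.A8)F1 (against 3) and 0 to 9 in the other 12 crosses (against 0, with 9 when both B6 mice were left out). Without E748 and E103 the chromosome 4 effect turned to -0.29 for Saa1 and -0.72 for Orm2, whereas without E752 and E422 it was 3.21 and 1.52. Of the 24 called effects, 24 were also called with other size factors, with legacy=FALSE and with adjustment over all genes, 23 with DESeq2, 18 with 0 and 10 with 10 surrogate variables, 11 with limma-trend and 14 without E752 and E422. Over all settings the joint tests called 7 to 10 members for strain (against 9) and 4 to 7 for interaction (against 6). No paired analysis was possible because replicate numbers were given in accession order and pair no mice. Low counts limit Saa3, and 3 to 6 mice per double strain limit the interactions.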
